A study of Gallus gallus with 16 samples.

Results

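GREM1, BMP7, FRZB, LRP6, FGFRL1 and IGFALS, genes of the BMP, Wnt, FGF and IGF pathways, were followed in abdominal fat of high-growth (HG) and low-growth (LG) chickens at 7 wk of age. They are 6 of the 17854 loci in the table of counts. Each was found by the Ensembl chicken gene identifier that the study's own list of differing genes gives for its symbol. Because that list was made from the same birds, the direction of each difference is a description and not independent evidence. Not all 6 products are secreted: as background, GREM1, BMP7, FRZB and IGFALS code for secreted proteins, whereas LRP6 and FGFRL1 code for receptors of the cell membrane. The list names the products of the loci read here as BMP7 (ENSGALG00000007668) and IGFALS (ENSGALG00000002325) only as uncharacterized proteins, so these symbols rest on the list.

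HG and LG cockerels descend from 1 meat-type (Bresse-Pile) population that was selected in opposite directions on body weight, and the birds of both lines were fed. RNA extracted from portions of abdominal fat was sequenced from 4 HG and 4 LG birds, each in 2 lanes. The birds of a line are represented by 1 estimated fragment count per gene, with a variance from the authors' model, so birds could not be looked at one by one. The line of each sample was taken from its title, since another label reads HG for all 16 samples. In bulk tissue, fewer cells of a type and less RNA per cell cannot be told apart.

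These pathways carry signals between the cells of a tissue. Bone morphogenetic proteins (BMPs) bind pairs of receptor kinases that act through SMAD proteins, and secreted antagonists such as gremlin hold the ligand away from its receptors. Wnt proteins bind Frizzled receptors together with the co-receptors LRP5 or LRP6 and stabilise β-catenin, a signal known from mouse cells to restrain the formation of adipocytes, whereas BMP7 is known from mice to favour brown adipocytes. Fibroblast growth factors (FGFs) act through receptor tyrosine kinases, and insulin-like growth factors (IGFs) travel in blood in complexes with binding proteins.

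The counts of the 6 genes did not all differ in the same direction. Counts were higher in HG than in LG fat for GREM1, FGFRL1, IGFALS, FRZB and LRP6, and lower in HG for BMP7. A difference was called when the log ratio of the 2 counts, divided by its standard error from the deposited variances, reached a Benjamini-Hochberg adjusted p of 0.05 over all loci tested, with a fold of at least 1.2. By this model-based criterion, 3 of the 6 genes were called (GREM1, FGFRL1 and IGFALS), all higher in HG. BMP7, the only gene with the lower count in HG, was not called. Over the 10484 loci tested, 2.93% were called, 2.07% as higher and 0.858% as lower in HG. Among the 1364 tested loci with a symbol in the study's list, from which the 6 genes come, 13.2% were called. The paper's own test, at the same adjusted p and fold, listed far more genes as differing than were called here. The paper names an earlier software release than the one behind the deposited counts. Whether its test read these same counts thus cannot be told. All 6 genes are in the paper's list of differing genes, so a gene not called here is not thereby shown to be unchanged. The criterion compares 1 value with 1 value, so these counts give no check against the spread between birds beyond the deposited variance. An exact or permutation test across birds could not be made from them. The paper's qRT-PCR at the same age did compare birds, by Student's t-test, for GREM1 and IGFALS. It reports both as higher in HG at the 0.05 level. The others of the 6 genes were not in that comparison.

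**Figure D1:**
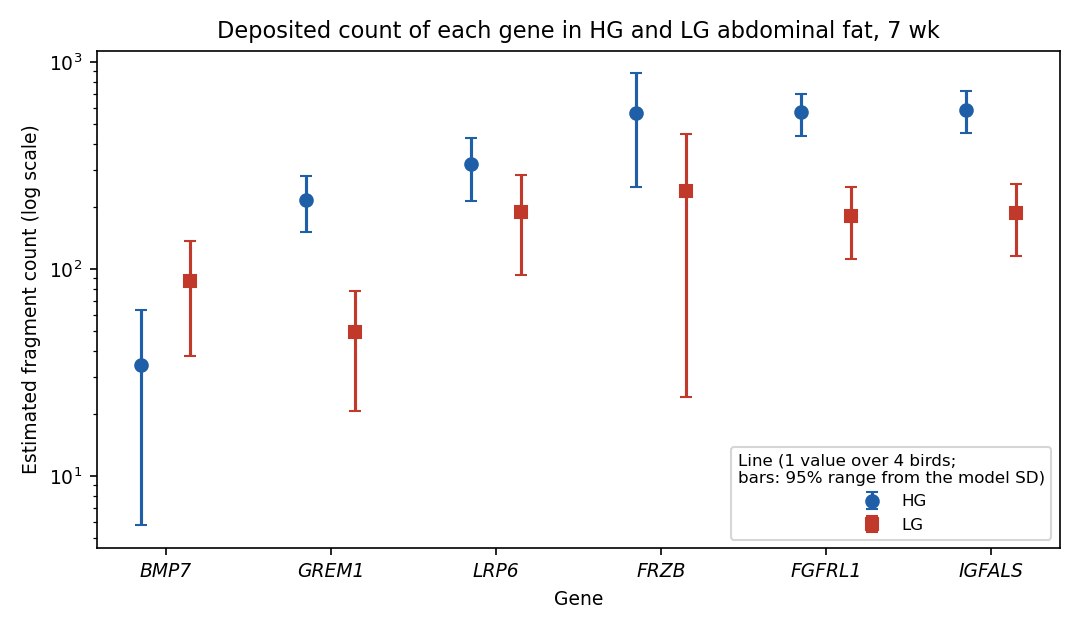
Estimated fragment counts (log axis) of the 6 genes in HG (circles) and LG (squares) abdominal fat, 1 value per line over 4 birds, with bars for the 95% range from the model SD. The bars of HG and LG are apart for GREM1, FGFRL1 and IGFALS and overlap for BMP7, LRP6 and FRZB. Over all loci tested, 5.07% had ranges that were apart.

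The table as a whole leaned towards HG. Summed counts came to 4421254 for HG and 3365950 for LG, and 75.3% of the loci tested had the higher count in HG. The mapped reads that the paper reports do not lean towards HG, and those of each single bird exceed both sums. What lies behind the lean and the small sums was not tested. The median log2 HG/LG ratio was 0.26, and that between the 2 sums was 0.39. Ratios of the 6 genes are given for the counts as deposited, with a pseudocount of 1 added to both, and calls were repeated after all ratios were centred on their median. After centring, 2.18% of the loci were called, 0.992% as higher in HG, and 7.77% of those with a symbol. GREM1, FGFRL1 and IGFALS were called both ways, and FRZB, LRP6 and BMP7 neither way.

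BMP7, the ligand among the 6, was the only one with the lower count in HG. Its count was 34.5 (model SD 14.7) in HG fat and 87.0 (model SD 25.0) in LG fat. The 95% ranges of these counts, 5.78 to 63.3 in HG and 38.0 to 136 in LG, overlapped. The log2 HG/LG ratio of BMP7 was -1.31, with a wide error (95% interval -2.73 to 0.11), and 2.91% of the loci tested had a smaller ratio. Relative to the median gene the ratio was -1.57 (95% interval -2.99 to -0.15), an interval that no longer holds 0, yet the gene was still not called over all loci. With a standard error of this size, a call needed a log2 ratio of 2.36 in either direction. Of the BMP7 variance, 52.3% in HG and 74.8% in LG was the part that the model assigns to the spread between replicates (dispersion). With that part alone the interval was -2.40 to -0.21, and again the gene was not called.

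GREM1 (ENSGALG00000009724), which codes for the BMP antagonist gremlin 1, had the largest ratio of the 6. Its count was 215.5 (model SD 33.3) in HG fat and 49.5 (model SD 14.7) in LG fat, with ranges of 150.2 to 280.9 in HG and 20.7 to 78.3 in LG that did not overlap. Over all loci tested, 5.07% had ranges that were apart in this way. The log2 ratio of 2.10 (95% interval 1.17 to 3.03) corresponds to 4.29-fold higher counts in HG (95% interval 2.25 to 8.18), and it stood at place 84 from the highest ratio. The lower end of the interval lay above both the median shift of 0.26 and the shift of 0.39 between the totals, so the gene was higher in HG under each of these scalings. Relative to the median gene the log2 ratio was 1.84 (95% interval 0.91 to 2.77), and relative to the totals it was 1.71. The paper's own RNA-Seq fold for GREM1 is smaller than the 4.29 from the counts as deposited. As a log2 ratio, that RNA-Seq fold lies between the values relative to the totals and to the median gene. The paper's qRT-PCR fold for GREM1 is smaller than its RNA-Seq fold and lies below the 95% interval of 2.25 to 8.18. That qRT-PCR fold lies within the interval relative to the median gene.

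GREM1 and BMP7 thus stood at opposite ends of the ratios of the 6 genes, though BMP7 was not called. No other BMP ligand of the lists had a row. The GREM1 count was 6.24 times the BMP7 count in HG and 0.569 times in LG. Counts are not divided by gene length, so neither figure is a ratio of transcripts, but gene length and any scaling between the lines cancel when the figures are set against each other. The log2 ratio of GREM1 exceeded that of BMP7 by 3.41 (95% interval 1.71 to 5.11). This is a difference between genes whose directions were known when they were chosen, and no test is attached to it.

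The other BMP genes with a symbol and a row were called only among the secreted modulators. Of the 7 secreted BMP modulators tested, GREM1, SMOC1, CHRDL2, CHRDL1 and HTRA1 were called, all higher in HG. SMOC1, a matrix protein that opposes BMP signalling in frog embryos, had 306.6 fragments counted in HG, against 21.3 in LG. CHRDL1 and CHRDL2, chordin-like BMP antagonists, had counts of 1061.6 and 94.5 in HG, against 469.7 and 15.6 in LG. HTRA1, a secreted serine protease, had 4749 in HG and 2166 in LG. CHRDL1, CHRDL2 and HTRA1 were no longer called after centring, while GREM1 and SMOC1 were. BMPER, a secreted BMP-binding protein, had 2686 fragments counted in HG, against 1419 in LG, and FSTL3, a follistatin-like protein, had 34.9 in HG and 41.4 in LG. Neither was called.

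No BMP receptor or signalling gene with a row was called. The type 1 receptor BMPR1A had 297.8 fragments counted in HG, against 142.8 in LG (log2 ratio 1.06, 95% interval 0.27 to 1.84). The type 2 receptor, listed as BMPR-II, had 877.6 in HG and 530.2 in LG (log2 ratio 0.73, 95% interval 0.17 to 1.28). RGMB, a BMP co-receptor, had nearly equal counts, 221.9 in HG against 219.2 in LG. Its log2 ratio of 0.02 (95% interval -0.65 to 0.69) is wide, so a difference was not detectable and its absence is not shown. The inhibitory SMAD listed as SMAD7A had a ratio of 1.07 with an interval that reached 0, and the ubiquitin ligase SMURF2, which degrades SMADs and their receptors, one of 0.74 (95% interval 0.13 to 1.34).

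**Figure D2:**
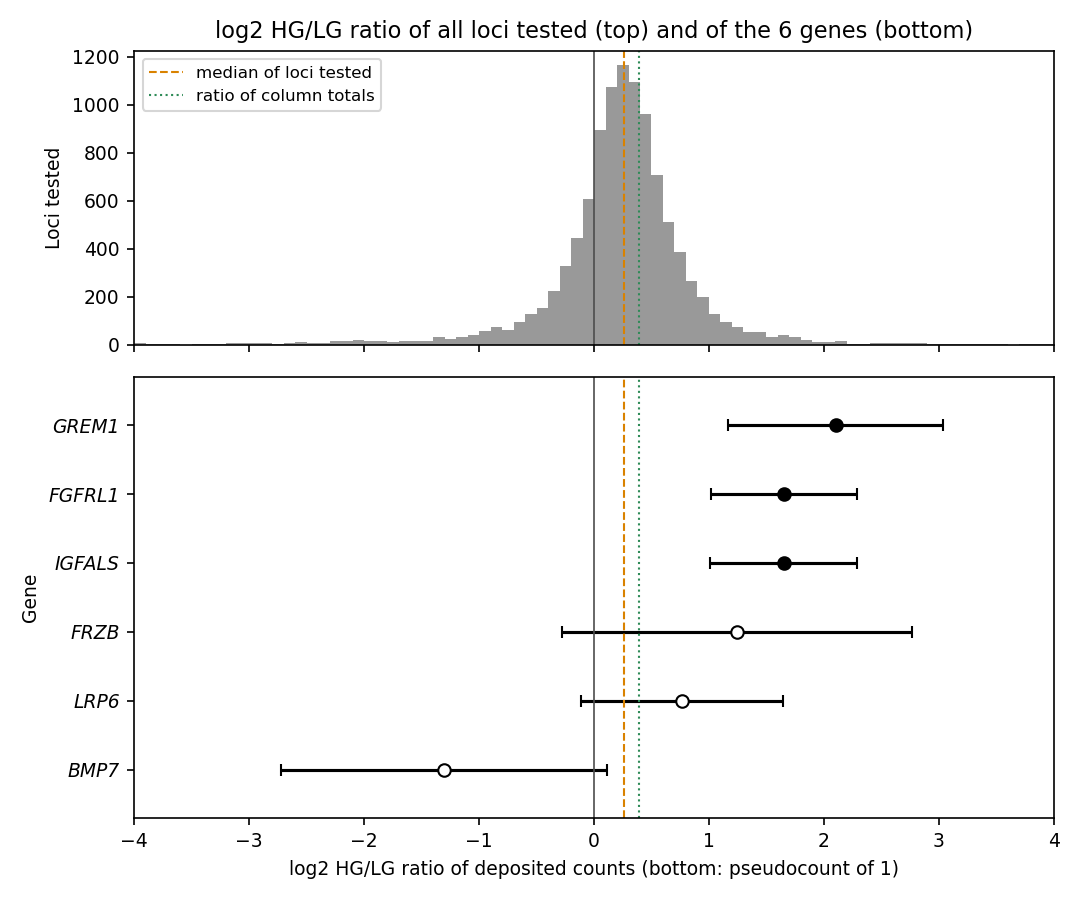
Distribution of the log2 HG/LG ratio over the 10484 loci tested (top, bins of 0.1, with 86 loci beyond 4 in either direction not drawn) and the ratios of the 6 genes with 95% intervals (bottom; filled points were called). The dashed line is the median of 0.26 and the dotted line the ratio of the totals, 0.39; the intervals of GREM1, FGFRL1 and IGFALS lie to the right of both, and that of BMP7 reaches from -2.73 to 0.11.

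The Wnt genes LRP6 and FRZB both had higher counts in HG, and neither was called. LRP6 (ENSGALG00000011558), the co-receptor that passes a Wnt signal into the cell, had a count of 322.4 (model SD 55.6) in HG fat and 189.3 (model SD 49.0) in LG fat. The ranges, 213.4 to 431.4 in HG and 93.3 to 285.4 in LG, overlapped. Its log2 ratio was 0.76 (95% interval -0.11 to 1.64), and 11.4% of the loci tested had a larger ratio, so LRP6 was the nearest of the 6 to the median gene.

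FRZB (ENSGALG00000002763) codes for a secreted Frizzled-related protein that binds Wnts outside the cell. Its count was 564.5 (model SD 161.4) in HG fat and 237.4 (model SD 108.8) in LG fat, and the ranges, 248.1 to 880.9 in HG and 24.2 to 450.7 in LG, overlapped. The log2 ratio of 1.25 (95% interval -0.28 to 2.77) was larger than in 96.4% of the loci tested, but its standard error of 0.78 was the largest of the 6. A call needed a log2 ratio of 2.48. The ratio of FRZB exceeded that of LRP6 by 0.48 (95% interval -1.27 to 2.24), so antagonist and co-receptor could not be ordered.

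Of the other 8 Wnt genes with a row, LGR5 and DACT2 were called, both higher in HG. LGR5, a receptor of R-spondins, the secreted enhancers of Wnt signalling, had 797.1 fragments counted in HG, against 291.4 in LG (log2 ratio 1.45, 95% interval 0.86 to 2.03) and was called also after centring. DACT2, an intracellular partner of Dishevelled, had 554.0 in HG and 244.2 in LG and was called only before centring. The ligands WNT2B, WNT4 and WNT11 had low counts, 58.6, 29.0 and 47.4 in HG, against 19.9, 6.38 and 17.3 in LG. Their log2 ratios were 1.51, 2.03 and 1.40, and none was called. RSPO1, an R-spondin, had 14.5 in HG and 36.2 in LG (log2 ratio -1.26, 95% interval -2.70 to 0.17). AXIN2, a target gene and feedback inhibitor of the β-catenin pathway, had 80.4 in HG and 83.8 in LG (log2 ratio -0.06, with an interval around 0). The orphan-type receptor kinase ROR2, which binds Wnt proteins, had a ratio of 0.68 (95% interval -0.17 to 1.52).

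FGFRL1 (ENSGALG00000015725) resembles the FGF receptors outside the cell but lacks the kinase domain through which they signal. Its count was 570.4 (model SD 67.9) in HG fat and 180.7 (model SD 34.9) in LG fat. The ranges, 437.2 to 703.5 in HG and 112.3 to 249.1 in LG, were apart, as were those of 5.07% of all loci tested. The log2 ratio of 1.65 (95% interval 1.01 to 2.29) corresponds to 3.14-fold higher counts in HG (95% interval 2.02 to 4.90), and 1.67% of the loci tested had a larger ratio. Relative to the median gene the ratio was 1.39 (95% interval 0.75 to 2.03).

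Of the other 4 FGF genes with a row, GPC4 and SULF1 were called, both higher in HG. GPC4 is a glypican, a heparan sulfate proteoglycan of the cell surface that can bind growth factors, and SULF1 is an extracellular enzyme that removes sulfate groups from heparan sulfate. GPC4 had 5752 fragments counted in HG, against 1471 in LG (log2 ratio 1.97, 95% interval 1.36 to 2.57), and SULF1 had 221.3 in HG and 86.3 in LG (log2 ratio 1.35, 95% interval 0.53 to 2.16). After centring GPC4 was called and SULF1 was not. The membrane proteins FLRT2 and FLRT3 were not called, with ratios of 0.99 (95% interval 0.20 to 1.77) and -0.47 (95% interval -1.26 to 0.31).

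IGFALS codes for the acid-labile subunit, which in mammals is secreted mainly by the liver and holds IGFs and their binding protein in a large complex in blood. Its count was 588.3 (model SD 69.6) in HG fat and 186.8 (model SD 36.1) in LG fat. The ranges, 451.9 to 724.6 in HG and 116.0 to 257.5 in LG, were apart, as were those of 5.07% of all loci tested. The log2 ratio of 1.65 (95% interval 1.01 to 2.29) corresponds to 3.14-fold higher counts in HG (95% interval 2.02 to 4.88). Relative to the median gene the log2 ratio was 1.39 (95% interval 0.75 to 2.03), and relative to the totals it was 1.26. The paper's own RNA-Seq fold for IGFALS is smaller than the 3.14 from the counts as deposited. As a log2 ratio, that RNA-Seq fold lies between the values relative to the totals and to the median gene. The paper's qRT-PCR fold for IGFALS is smaller than its RNA-Seq fold but lies within the 95% interval of 2.02 to 4.88. FGFRL1 and IGFALS held neighbouring places in the order of ratios, 176 and 177 from the highest. Their ratios differed by 0.00 (95% interval -0.90 to 0.91), an interval that reaches 1.87-fold in either direction and so does not show that they are alike.

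Besides IGFALS, 2 IGF genes had a row, and neither was called. IGF2, the ligand, had 68.2 fragments counted in HG, against 82.1 in LG (log2 ratio -0.27, 95% interval -1.60 to 1.07). PAPPA, a protease that cleaves IGF-binding proteins, had 53.0 in HG and 9.24 in LG (log2 ratio 2.40, 95% interval 0.88 to 3.91).

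Of the 232 symbols in the lists of the 4 pathways, 43 had an identifier in the study's list and 31 of these had a row, the 6 genes included. All 31 were tested. As deposited, 11 were called, all higher in HG, and after centring 6 were called, again all higher in HG. Over all loci tested, 2.93% were called as deposited and 2.18% after centring. Over those with a symbol the shares were 13.2% and 7.77%. By role, 8 of 13 secreted or extracellular modulators, 2 of 7 receptors, 1 of 6 signalling or target genes and none of 5 ligands were called as deposited. After centring these counts were 4 of 13 modulators, 2 of 7 receptors, and none of the signalling or target genes or the ligands. The size of the gap between modulators and receptors thus depended on the scaling. With the 6 genes left out, 6 of 10 modulators and 1 of 5 receptors were called as deposited, and 2 of 10 and 1 of 5 after centring. Of the ligands, WNT2B, WNT4 and WNT11 had single-gene intervals above 0 before adjustment, and no ligand had a count above 68.2 in HG or above 87.0 in LG. The median log2 ratio was 1.13 over the 31 genes and 1.07 over the 25 without the 6 genes, beside 0.26 over all loci tested and 0.69 over those with a symbol. Since every gene of these lists that could be read had already been picked by the study as differing between these birds, the counts describe the genes read and not the pathways.

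**Figure D3:**
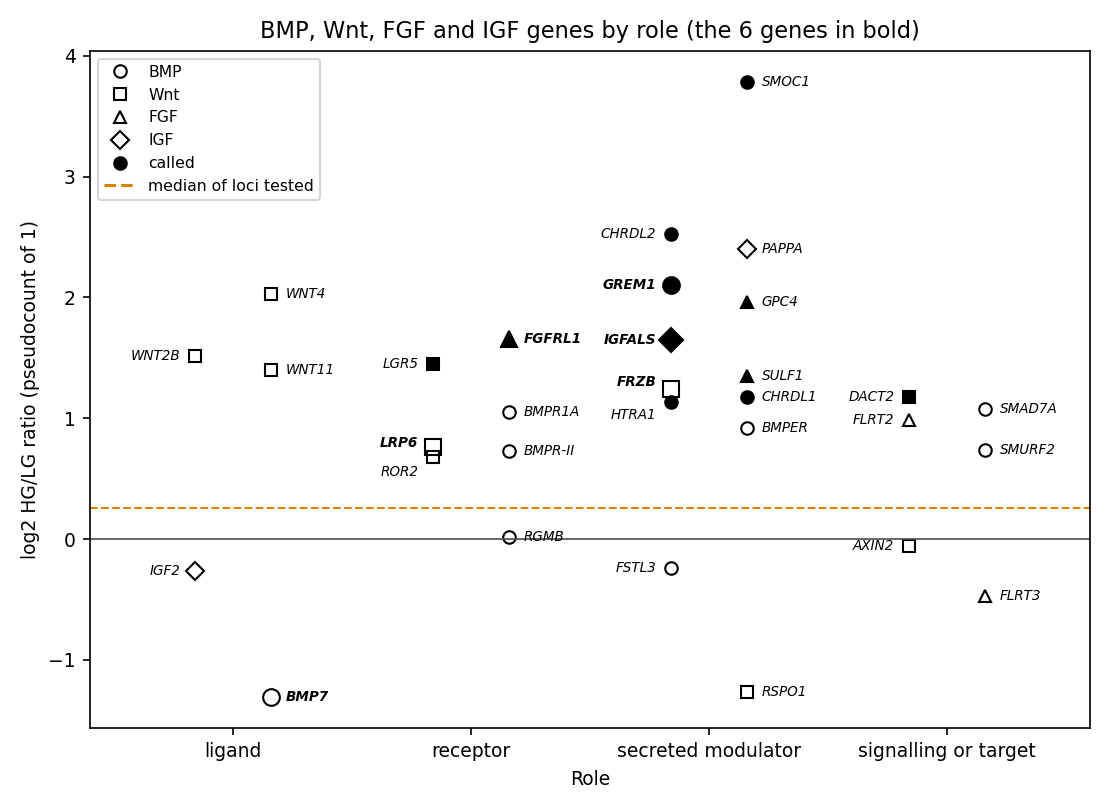
log2 HG/LG ratios of the 31 BMP, Wnt, FGF and IGF genes with a row, by role, with symbols marking the family, filled symbols for called genes and larger symbols with bold names for the 6 genes. Of the 13 modulators 8 are filled (4 stay called after centring), of the 7 receptors 2 (2 after centring), of the 5 ligands none, and BMP7 at -1.31 is the lowest point. Over all loci tested 2.93% were called (2.18% after centring), and over those with a symbol 13.2% (7.77% after centring).

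Pairs of the 6 genes were compared through the difference of their log2 ratios, in which the scaling between the lines cancels. Of 15 pairs, 6 had a 95% interval that did not hold 0, and 5 of these were the pairs with BMP7. The log2 ratio of BMP7 minus that of FGFRL1 was -2.96 (95% interval -4.52 to -1.41), minus that of FRZB -2.55 (95% interval -4.63 to -0.47) and minus that of LRP6 -2.07 (95% interval -3.74 to -0.41). The sixth pair was GREM1 and LRP6, with a difference of 1.34 (95% interval 0.06 to 2.62). The order among GREM1, FGFRL1, IGFALS and FRZB was within the intervals, and so was that of LRP6 against FGFRL1, IGFALS and FRZB. These intervals were not adjusted for the number of pairs. The genes were chosen with their directions known, so the separation of BMP7 from the others is a description and not a test.

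The variance behind each count differed in kind between the genes. For most loci the dispersion part was a smooth function of the count: in HG 86.5% and in LG 84.2% of the loci tested lay within 5% of its running median. GREM1 (1.01 times the running median in HG and 0.993 in LG), FGFRL1 (0.994 in HG and 0.995 in LG) and IGFALS (0.989 in HG and 1.02 in LG) lay on this curve, as did the dispersion part of BMP7 (0.998 in HG and 1.02 in LG). The model SDs of GREM1, FGFRL1 and IGFALS therefore follow from their counts, while the whole BMP7 variance was 1.91 times the curve in HG and 1.36 times in LG. FRZB lay at 5.42 times the curve in HG and 6.64 times in LG, above 98.5% of the loci tested in each line, and LRP6 at 1.63 times in HG and 1.85 times in LG. With the variance of every locus set to the curve, a choice made after the data were seen, the interval of FRZB was 0.64 to 1.85 and FRZB was called, as were 3.88% of all loci tested, whereas LRP6 (95% interval 0.11 to 1.42) and BMP7 (95% interval -2.40 to -0.22) were not.

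**Figure D4:**
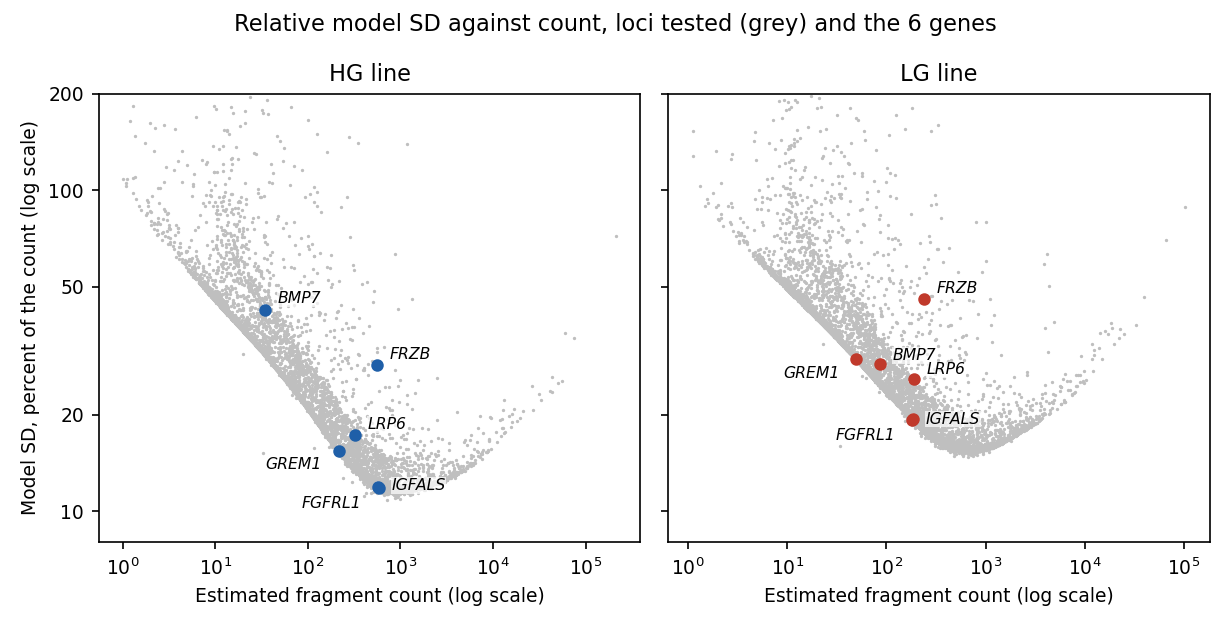
Model SD as a percent of the count against the count (both axes log) in HG (left) and LG (right), for the loci tested (grey) and the 6 genes (coloured). GREM1, FGFRL1 and IGFALS lie on the lower edge formed by most loci, and FRZB stands above it at 28.6% in HG and 45.8% in LG.

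Whether the model variance belongs to a single library or to a mean over birds is not given in the sources used here. Read as that of 1 library and divided by the 4 birds of a line, it gave intervals of -2.02 to -0.60 for BMP7, 0.48 to 2.01 for FRZB and from 0.33 upwards for LRP6, and all 6 genes were called, as were 27.1% of all loci tested. By the intervals of single genes, without adjustment, 11.4% of all loci tested had a ratio apart from 0 with the variance as deposited, and 3 of the 6 genes did. For neither figure was the share computed among the loci of the study's list, from which the 6 genes come. With the variance divided by 4, 26 of the 31 pathway genes drawn from that list were called.

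Markers of other cell types could be read only in small part. Of the hepatocyte list, 1 of 10 markers had a row, SERPINC1, with 4.40 fragments counted in HG, against 64.7 in LG, and it was not called. From the same list, the paper's RNA-Seq gives ALB, FGA, FGB, FGG, APOH, AHSG, HRG and TTR as higher in LG fat. Those genes had no row and could not be read here. Of 9 skeletal muscle markers 5 had a row, which summed to 1319 in HG and 527 in LG, most of it ACTA1 (1144 in HG and 526 in LG). The median log2 ratio of the 3 that could be tested was 4.21, none of them called. ACTN2 had 67.6 in HG and 1.13 in LG, TNNI2 had 23.7 in HG and 0.332 in LG, MYBPC1 had 83.8 in HG and 0 in LG, and TNNC2 was at 0 in both lines. The mesothelial marker WT1, 1 of 7 with a row, had 49.9 in HG and 96.1 in LG (log2 ratio -0.93, 95% interval -2.37 to 0.51). Of 8 stromal markers 3 had a row, PDGFRB, DCN and DPT, which summed to 11327 in HG and 7141 in LG, with a median log2 ratio of 0.75. PDGFRB (log2 ratio 1.07) was called higher in HG as deposited, like GREM1, FGFRL1 and IGFALS, but unlike them not after centring. CDH5, 1 of 6 endothelial markers, had a ratio of 0.78 and CSF1R, 1 of 7 leukocyte markers, one of 0.73. Of 9 adipocyte markers 2 had a row. PPARG had a ratio of 0.96 and was likewise called higher in HG only before centring. DGAT2 was listed at 0 in both lines. No other marker was called. A count of 0 for DGAT2 or TNNC2 cannot be read as a lack of expression in these birds. The paper reports both genes as higher in HG fat. The part of these cell types in the differences of the 6 genes was not tested.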

How the data were processed

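Abdominal fat RNA of 4 HG and 4 LG cockerels was sequenced in 2 lanes per bird. The authors mapped trimmed reads to Galgal4 with TopHat 1.3.3 and Bowtie 0.12.7 and deposited estimated counts per gene and line from Cuffdiff 2.0.2, with other columns for the model variance and its assignment and dispersion parts (deposited in squared counts). The scaling between lines is not given in the sources used here. Of the 17854 loci, 3659 had no fragments in either line and 40 lacked an OK status. Loci with OK status, counts above 0 and at least 10 in the higher line were tested: log ratio over its delta-method standard error, normal reference, two-sided, with Benjamini-Hochberg adjustment over all 10484. The test used counts without the pseudocount, and the printed ratios and intervals have it. The median model SD was 20.2% of the count in HG and 24.6% in LG. Symbols came from the study's list (1828 identifiers with a symbol, 1420 of them with a row). All 6 genes were named in full, and of the lists every called gene and, by list and role, those with the highest count and the largest and smallest ratio. BMPER falls outside this rule and was named after its values were seen. Members and lists were chosen with earlier results of these data known. The test was tried on data simulated from the same variance curve that it was then given. That trial cannot check whether the deposited variances describe these birds. Python 3.11.15, pandas 2.3.3, numpy 2.4.6, scipy 1.17.1 and matplotlib 3.10.9 were used. Sequences and genome positions were not used here.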

Additional observations from a re-analysis of the deposited data

How the results depend on the processing

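No paired analysis was possible because the file holds 1 value per line and none per bird, and for the same reason no bird could be left out. GREM1, FGFRL1 and IGFALS were called under 2 other scalings, 2 count minimums, 4 other variances, every status and 2 fold minimums. Not all of these runs could have changed their calls. For these 3 genes dispersion was 100% of the variance and lay near the trend. The runs with dispersion alone and with the trend variance thus nearly repeat the main test for them. Dividing the variance or dropping the fold minimum could only add calls. The 2 pseudocounts do not enter the test. Only the 2 scalings and the 2 pseudocounts alter the ratios, and under these none of the 6 genes changed direction. With the variance divided by 4, BMP7 (log2 ratio -1.31), FRZB (1.25) and LRP6 (0.76) were called too, 6 genes in all, and FRZB also with the variance from the trend (407 loci called, 4 of the 6 genes). Dividing by 4 raised the calls over all loci from 307 to 2841, from 217 to 2330 higher in HG and from 90 to 511 lower in HG, and those of the pathway lists from 11 to 26, 2 of them lower in HG. Scaling moved the balance: 104 loci were called higher in HG after centring on the median and 73 after centring on the totals, where 163 were lower. The pathway lists then had 6 calls under both. Counts under about 100, as for BMP7 and the Wnt ligands, limit what could be called. The variances of GREM1, FGFRL1 and IGFALS follow the trend with count, so their calls do not test the spread between these birds.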
